A study of Mus musculus with 9 samples.

Results

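Bone marrow-derived macrophages, cultured from the marrow of wild-type C57Bl/6 mice, were compared in 2 states across all genes: given an ester of D-2-hydroxyglutarate (D2HG) and then lipopolysaccharide (LPS), or left resting. The first group, D2HG_LPS, was given the octyl ester of D2HG for 1 h and LPS for 24 h. The resting group, Veh_N, was given vehicle at both steps. These 6 libraries were taken by their labels out of 9. The other 3, Veh_LPS, received vehicle for 1 h and LPS for 24 h, and were used where a value had to be placed beside LPS without the ester. D2HG_LPS and Veh_N differ in both agents. No group received the ester alone or an octyl ester of another acid, and no dose is stated in the sources used here. Whether the replicates are separate animals or cultures is not in the labels, so a p-value here reflects the spread of these samples alone, and that spread may be technical.

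LPS, a component of the outer membrane of Gram-negative bacteria, is sensed by Toll-like receptor 4 with its partners Cd14 and Ly96. The adaptor Myd88 then leads to NF-kappaB and inflammatory cytokines, and the adaptor Ticam1 leads to Irf3, interferon-beta and, through secreted interferon, to interferon-stimulated genes. D2HG is a reduced form of alpha-ketoglutarate that competes with it at dioxygenases which use it, and an ester is a common way to carry such an acid across the cell membrane. Resting macrophages are known for lysosomal digestion, scavenger receptors and the clearance of dying cells.

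The table holds 24445 genes, of which 16158 were counted at least once and 11622 passed the filter for testing. D2HG_LPS libraries held 11659437, 13209786 and 11539635 counts and Veh_N libraries 10831619, 12619702 and 9451258, so genes with few counts are known less precisely. Over all 9 libraries the leading principal component carried 91.5% of the variance and the next one 2.9%. Macrophage markers were present in both states: the 10 markers summed to 12740 to 13520 CPM (counts relative to a library size scaled by the trimmed mean of M-values, TMM) in D2HG_LPS and 13610 to 16110 CPM in Veh_N. Markers of some other cell types moved between the states. Of 7 dendritic cell markers tested out of 10 listed, 5 were at least 2-fold higher and 1 at least 2-fold lower, and the sum of all 10 was 579 to 645 CPM in D2HG_LPS against 116 to 140 in Veh_N. The 12 neutrophil markers summed to 185 to 206 against 83.2 to 94.1 CPM (of 7 tested, 5 at least 2-fold higher and 1 at least 2-fold lower). The 12 stromal and endothelial markers summed to 92.1 to 102 against 8.78 to 11.9 CPM, with Lum and Pdgfra at 0 in every library. The 10 T and NK cell markers matched summed to 67.3 to 75.9 against 105 to 187 CPM. Osteoclast markers summed to 130 to 132 against 318 to 396 CPM, with Calcr at 0. Of 7 osteoclast markers tested, 4 were at least 2-fold lower and 1 at least 2-fold higher. The 7 B cell markers stayed at or below 11.2 CPM, the 9 mast cell markers at or below 7.12 and the 10 erythroid and megakaryocyte markers at or below 2.37, and Igll1, Fcer1a, Mcpt4, Tpsab1 and Tpsb2 were at 0 in every library. The part of these other markers in the results below was not tested. In bulk RNA, fewer cells of a type and less RNA per cell cannot be told apart.

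Most of the measured transcriptome differed between the states. By edgeR's quasi-likelihood test, 8435 genes (72.6% of those tested) had a Benjamini-Hochberg adjusted p under 0.05 and are referred to as called, with 4114 (35.4%) higher in D2HG_LPS and 4321 (37.2%) lower. At least 2-fold differences were found in 2001 called genes that were higher (17.2%) and in 2289 that were lower (19.7%), and every list below is read against these shares. With genes at 0 in every library of a state taken at their floor of 3 counts per library, 451 called genes were at least 10-fold higher and 240 at least 10-fold lower, and 148 and 20 passed 50-fold. Scaled by library totals alone these were 322 and 437 at 10-fold and 107 and 36 at 50-fold, so the balance at 10-fold turned with the scaling. In 8786 genes (75.6%) the 3 libraries of each group did not overlap. The rule that named the largest rises and falls required this. A lack of overlap stated below for genes taken by that rule is therefore no further result. The median gene differed by -0.04 on the log2 scale, and the median size of a difference in either direction was 0.70. For Veh_LPS over Veh_N, which shares the resting libraries, 8587 genes (73.9%) were called, and the median size was 0.75. D2HG_LPS and Veh_LPS were much closer, with 245 genes called (2.11%), of which 134 were higher and 111 lower in D2HG_LPS, and a median size of 0.15.

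The balance of rises and falls depended on the scaling. On the TMM scale 48.8% of calls were higher. Upper-quartile scaling moved the median gene by -0.30 and left 34.4% of calls higher, and library totals alone moved it by -0.61 and left 23.02%. Changes are given on the TMM scale, and where a direction turned on another scale this is said beside it.

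**Figure D1:**
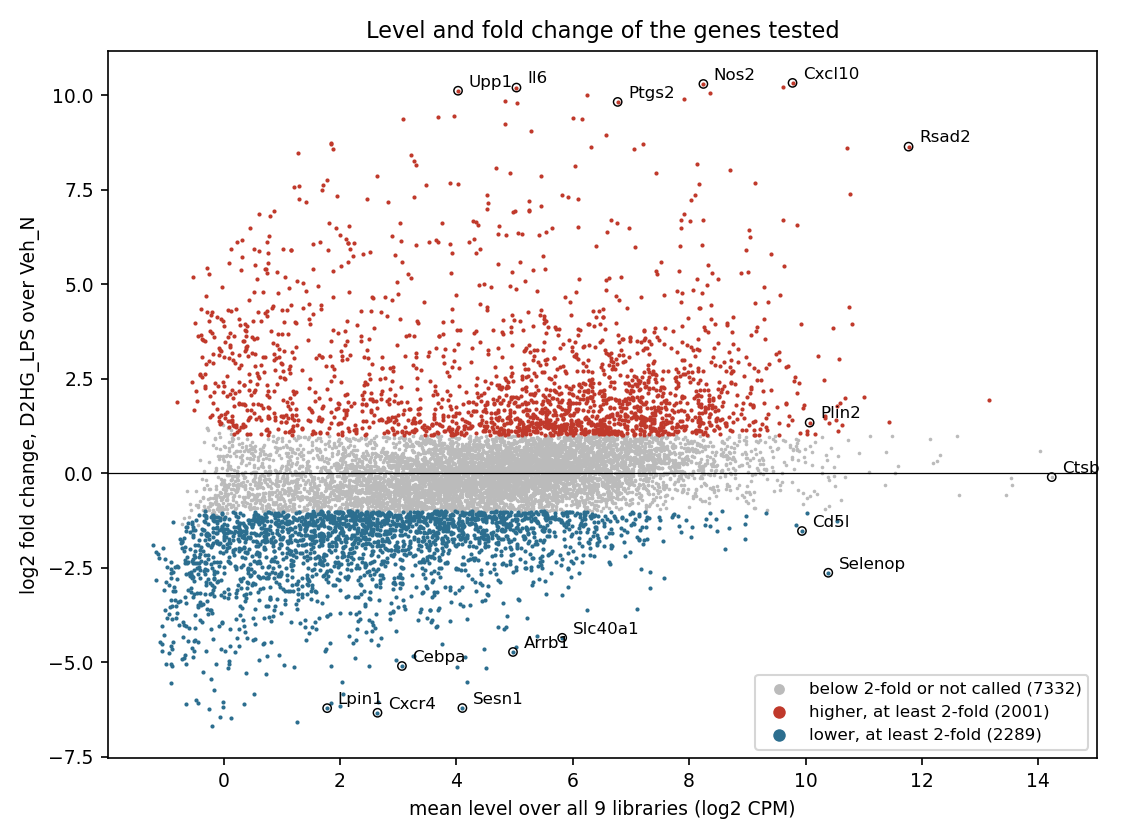
Each point is 1 of the 11622 genes tested, placed by its mean level over the 9 libraries (x axis, log2 CPM) and its log2 fold change of D2HG_LPS over Veh_N (y axis). Red points are the 2001 genes called at least 2-fold higher and blue points the 2289 called at least 2-fold lower. Genes without counts in one state are drawn at the smallest change that a floor of 3 counts per library allows.

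Inflammatory cytokine genes were low at rest and high in D2HG_LPS. Il6, which encodes a cytokine that drives fever and the acute phase, was measured at 217, 227 and 232 CPM in the D2HG_LPS libraries and 0.276, 0.119 and 0.157 CPM in Veh_N. Il1b, the precursor of interleukin-1 beta, was at 569, 488 and 679 CPM in the D2HG_LPS libraries and 0.965, 0.712 and 0.940 CPM in Veh_N, and Tnf, tumour necrosis factor, at 1690, 1566 and 1645 CPM in the D2HG_LPS libraries and 8.55, 8.36 and 7.29 CPM in Veh_N. Every D2HG_LPS library lay far above every resting library for these 3 genes. The log2 fold changes were 10.20 ± 0.22 (SE) for Il6, 9.37 ± 0.21 for Il1b and 7.66 ± 0.11 for Tnf, with edgeR quasi-likelihood Benjamini-Hochberg adjusted p = 5.89e-13, 8.05e-13 and 5.39e-14. Il6 had 8 counts in all over the resting libraries, so counting alone gives a 95% interval of 9.30 to 11.49. Il12b, which encodes a subunit that several cytokines of the interleukin-12 family share, rose by 9.83 ± 0.23 (counting interval 8.93 to 11.12), Il27 by 7.95 ± 0.17, and the anti-inflammatory cytokine Il10, at 68.2, 56.9 and 68.2 CPM in the D2HG_LPS libraries and 1.66, 1.78 and 2.59 CPM in Veh_N, by 5.02 ± 0.15. Il6 and Il12b also differed from Veh_LPS, where they stood at 364 ± 61.2 and 307 ± 50.6 CPM (mean ± SD, n = 3), so that the ester-treated state held less of both (-0.69 ± 0.11 and -0.81 ± 0.12 on the log2 scale, edgeR quasi-likelihood Benjamini-Hochberg adjusted p = 0.00571 and 0.00326). The Il6 call against Veh_LPS was lost without D2HG_LPS replicate 1. For Tnf, Il1b, Il27 and Il10 no difference between D2HG_LPS and Veh_LPS was called.

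Of 30 cytokine genes listed, 25 were tested, 23 were called at least 2-fold higher and 0 at least 2-fold lower. Their median log2 fold change was 6.27, or 5.02 with the 3 genes without resting counts (Il33, Ifnb1 and Il19) held at their floor, beside -0.04 over all genes tested. Genes silent at rest entered the test by their counts after LPS, and 14 of the 25 were below 1 CPM in a resting library. With genes below 1 CPM (before TMM scaling) in any resting library left out, 11 were tested and 9 were at least 2-fold higher.

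Chemokines, the secreted attractants of leukocytes, showed the same scale of change. Cxcl10, a ligand of Cxcr3 on T cells, was at 9498, 9270 and 9514 CPM in the D2HG_LPS libraries and 5.86, 8.48 and 7.68 CPM in Veh_N (10.32 ± 0.14). Ccl5 was at 3202, 2989 and 3274 CPM in the D2HG_LPS libraries and 3.52, 2.49 and 2.98 CPM in Veh_N (10.04 ± 0.17), and Cxcl9, another Cxcr3 ligand induced by interferon, at 382, 388 and 389 CPM in the D2HG_LPS libraries and 0.690, 0.534 and 0.470 CPM in Veh_N (9.39 ± 0.12). None of these groups overlapped, a condition of the rule for the largest rises, which took each of these genes. Cxcl9 in D2HG_LPS was below its Veh_LPS level of 851 ± 34.9 CPM (-1.14 ± 0.07, edgeR quasi-likelihood Benjamini-Hochberg adjusted p = 4.90e-06), as was Ccl12, at 419 ± 33.4 against 682 ± 44.5 CPM (-0.70 ± 0.09, edgeR quasi-likelihood Benjamini-Hochberg adjusted p = 0.00153), whereas Cxcl10 (-0.02 ± 0.09), Ccl5 (-0.15 ± 0.11) and Ccl2 (-0.01 ± 0.16) were not called. Ccl2, the main attractant of monocytes, rose from 63.9 ± 19.4 to 2850 ± 122 CPM (5.48 ± 0.20). Cxcl11 rose by 9.43 ± 0.26 from 5 resting counts in all (counting interval 8.33 to 11.18), and by 10.90 without Veh_N replicate 1. The row kept for Cxcl11 was a non-coding RefSeq transcript. Of 23 chemokines listed, 20 were tested, 19 were at least 2-fold higher and 0 at least 2-fold lower, with a median of 5.71. With the same filter on resting levels 13 members were tested and 12 were at least 2-fold higher, the other being Ccl6 (-0.01 ± 0.08, named for this count).

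Receptors for such signals included rises and falls. The formyl peptide receptors Fpr1 and Fpr2, which sense bacterial peptides, rose by 5.07 ± 0.23 and 6.60 ± 0.31, and the chemokine-binding receptor Ccrl2 by 5.99 ± 0.13. Fpr2 was at 46.6, 42.3 and 46.4 CPM in the D2HG_LPS libraries and 0.827, 0.297 and 0.235 CPM in Veh_N, and its fold change was 7.33 without Veh_N replicate 1. Both formyl peptide receptors stayed below Veh_LPS (17.1 ± 0.624 against 38.2 ± 6.78 CPM for Fpr1, -1.16 ± 0.14). Cxcr4, the receptor that holds cells in the marrow, was at 0.975, 1.28 and 1.18 CPM in the D2HG_LPS libraries and 81.3, 92.5 and 108 CPM in Veh_N, a fall (-6.33 ± 0.18). Of 19 receptors listed, 17 were tested, 4 were at least 2-fold higher and 7 at least 2-fold lower, with a median of -0.07. Of the 14 with at least 1 CPM in every resting library, 1 was at least 2-fold higher and 6 at least 2-fold lower, with a median of -0.52.

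Interferon-stimulated genes rose in every tested case. Rsad2, whose product viperin makes a chain-terminating nucleotide against viruses, was at 25850, 25780 and 26510 CPM in the D2HG_LPS libraries and 73.2, 76.2 and 46.7 CPM in Veh_N. Its neighbour Cmpk2, a mitochondrial nucleotide kinase, was at 12150, 12170 and 12270 CPM in the D2HG_LPS libraries and 33.9, 39.1 and 20.9 CPM in Veh_N, and Ifit2, which binds foreign RNA, at 9369, 9759 and 8963 CPM in the D2HG_LPS libraries and 71.6, 65.2 and 31.5 CPM in Veh_N. The highest resting library for each of these genes was more than 100-fold below the lowest D2HG_LPS library. Fold changes on the log2 scale were 8.64 ± 0.19 for Rsad2, 8.60 ± 0.21 for Cmpk2, 7.38 ± 0.28 for Ifit2, 7.31 ± 0.15 for Mx2, of a family of antiviral GTPases, 6.31 ± 0.13 for the exonuclease Isg20 and 8.95 ± 0.20 for Ifi205, a member of a family of DNA sensors. The row kept for Mx2 was a non-coding RefSeq transcript. All 42 tested members (of 43 listed) were called at least 2-fold higher, with a median of 4.51 and a range of 1.35 to 8.95, and the filter on resting levels left 40, all at least 2-fold higher. Compared with Veh_LPS, their median was -0.15 and 1 of 42 was called, lower (Trim21, named for this count, -0.40).

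Interferon-inducible GTPases, which attack the vacuoles of intracellular microbes, formed a parallel group. Gbp5 was at 2531, 2611 and 2371 CPM in the D2HG_LPS libraries and 8.90, 11.03 and 9.01 CPM in Veh_N (8.01 ± 0.12). Gbp3 rose by 6.01 ± 0.12, Igtp by 5.36 ± 0.12 and Tgtp2 by 7.19 ± 0.11, and Gbp2 was at 4088, 3956 and 3918 CPM in the D2HG_LPS libraries and 60.4, 35.2 and 30.2 CPM in Veh_N (6.57 ± 0.23). Of 17 listed and tested, 16 were at least 2-fold higher and 0 at least 2-fold lower, with a median of 6.01, or 5.36 with Gbp2b, which had no resting counts, at its floor. Of the 17, 4 were below 1 CPM in a resting library. By edgeR 0 of 17 were called between D2HG_LPS and Veh_LPS, where 7 had an unadjusted p under 0.05, DESeq2 called 4 and limma-voom 2. Several Gbp and Tgtp genes are near-identical copies whose counts may be shared.

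Promoters of such genes are shown because their members moved together, and those printed are examples that hold a match. The sequences come from RefSeq (GRCm38.p6, 250 bases before to 50 after the start, 300 in all, in the direction of transcription), and capitals mark matches to the motif GAAA, any 2 bases, GAAA (the interferon-stimulated response element type) or GGG, any 3 bases, TTCC (the NF-kappaB type), on either strand. Isg15, a ubiquitin-like modifier (chosen after its value was seen, 7.22 ± 0.18), lies on the minus strand at chr4:156200769-156201068, Rsad2 on the minus strand at chr12:26456403-26456702, Cxcl10 on the minus strand at chr5:92348840-92349139 and Il6 on the plus strand at chr5:30012864-30013163.
Isg15: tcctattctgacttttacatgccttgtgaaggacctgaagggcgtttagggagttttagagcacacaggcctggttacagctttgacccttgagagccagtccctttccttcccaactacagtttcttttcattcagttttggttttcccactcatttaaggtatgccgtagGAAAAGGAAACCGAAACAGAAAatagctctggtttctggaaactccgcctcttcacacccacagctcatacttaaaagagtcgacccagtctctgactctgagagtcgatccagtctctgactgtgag
Rsad2: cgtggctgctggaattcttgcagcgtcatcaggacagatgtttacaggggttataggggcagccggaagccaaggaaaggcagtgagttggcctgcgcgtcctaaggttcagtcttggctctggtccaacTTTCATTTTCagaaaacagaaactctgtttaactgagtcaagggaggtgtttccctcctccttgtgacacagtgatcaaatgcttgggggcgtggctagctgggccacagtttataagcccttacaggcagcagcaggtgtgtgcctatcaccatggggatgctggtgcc
Cxcl10: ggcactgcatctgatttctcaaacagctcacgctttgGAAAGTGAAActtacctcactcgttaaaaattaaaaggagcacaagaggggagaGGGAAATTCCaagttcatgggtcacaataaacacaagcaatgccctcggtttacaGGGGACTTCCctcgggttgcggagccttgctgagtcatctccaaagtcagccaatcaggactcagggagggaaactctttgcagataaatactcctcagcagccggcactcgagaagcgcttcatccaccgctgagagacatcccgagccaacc
Il6: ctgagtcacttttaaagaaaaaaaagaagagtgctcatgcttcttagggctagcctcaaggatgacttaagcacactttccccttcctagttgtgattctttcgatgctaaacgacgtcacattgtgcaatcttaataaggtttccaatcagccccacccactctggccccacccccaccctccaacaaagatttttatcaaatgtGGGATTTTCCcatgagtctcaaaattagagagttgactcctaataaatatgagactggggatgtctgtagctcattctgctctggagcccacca
Isg15 held 3 overlapping matches of the interferon type, beginning 78, 72 and 66 bases before the start, and Rsad2 held 1, at 120 bases. Cxcl10 held 1 of the interferon type (213 bases) and 2 of the NF-kappaB type (159 and 104 bases), and Il6 held 1 of the latter (44 bases). The promoters of Il12b, Cxcl9 and Acod1, which also rose and are not printed, held no match of either type. Over the table as a whole, 3.44% of 32851 promoters held the interferon type and 5.56% the NF-kappaB type. The interferon type was found in 18 of 36 promoters of the interferon-stimulated list and in 10 of 12 (83.3%) of the GTPases, and the NF-kappaB type in 7 of 27 (25.9%) of cytokines and 5 of 15 (33.3%) of chemokines. Among promoters of genes at least 10-fold higher, 14.9% held the interferon type and 11.6% the NF-kappaB type. Among those of genes at least 10-fold lower the shares were 0.725% and 6.16%. Over the promoters of all genes tested they were 3.39% and 6.38%. A match says only that the letters are there.

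**Figure D2:**
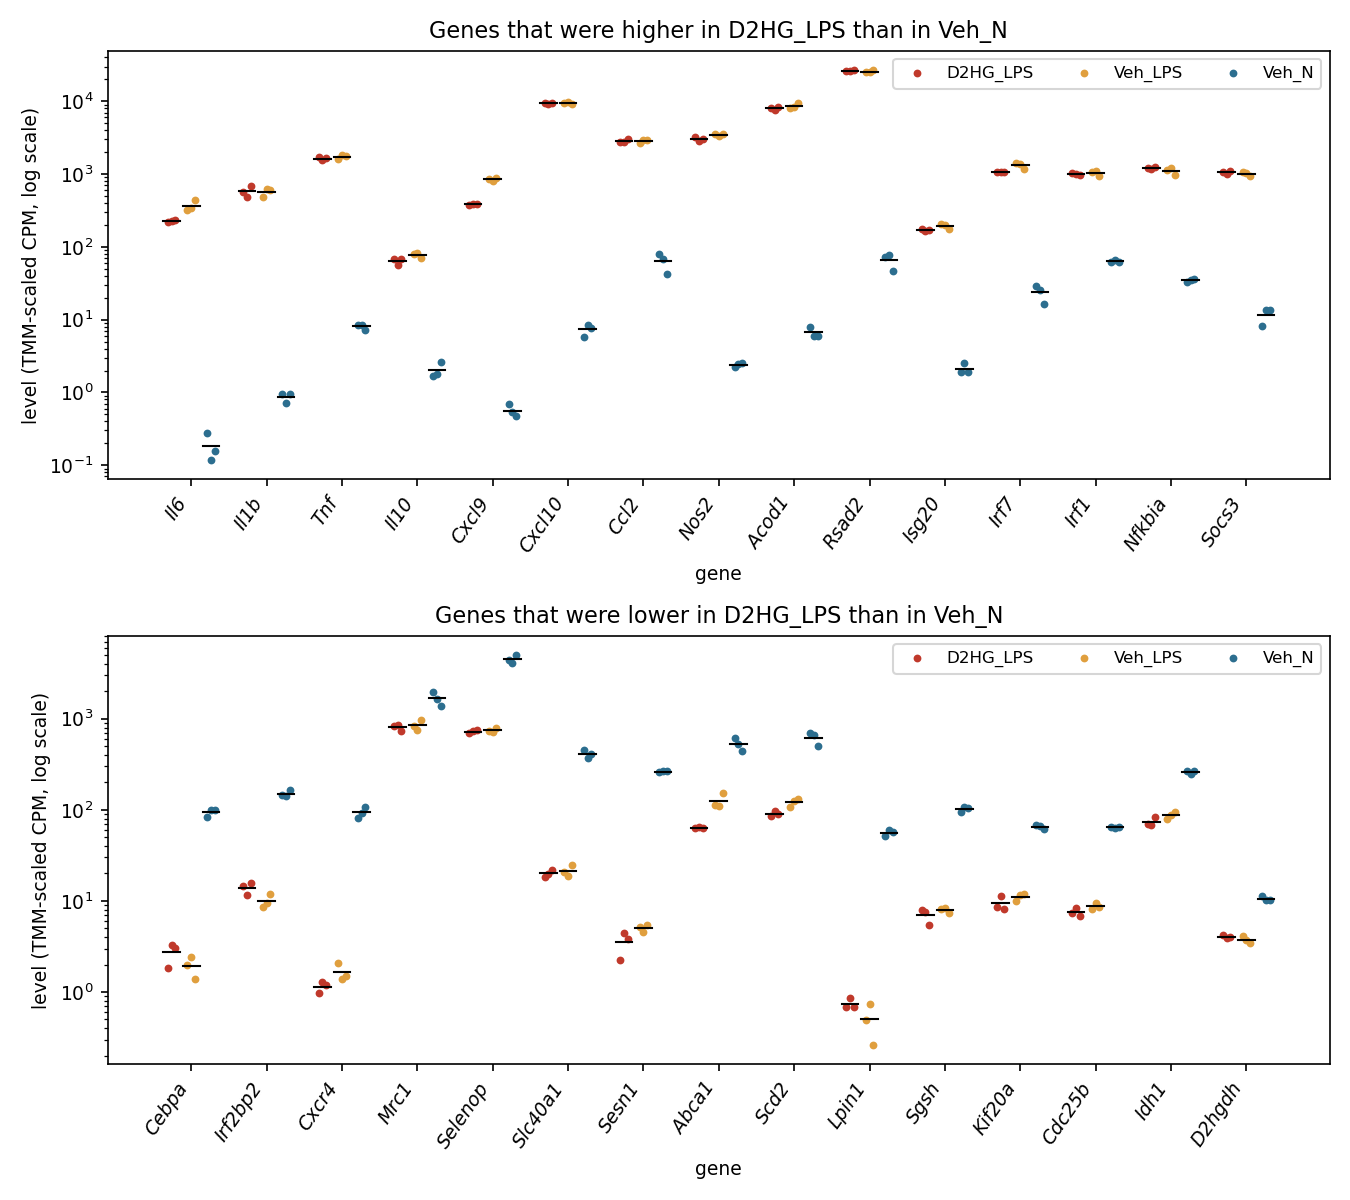
Levels of 15 genes that were higher (top) and 15 that were lower (bottom) in D2HG_LPS than in Veh_N, on a log axis in CPM. Each point is a library (3 per group) and each bar a group mean. In each of the 30 genes the D2HG_LPS points lie apart from the Veh_N points, and for Il6, Cxcl9 and Abca1, among others, they also lie below all Veh_LPS points.

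Transcription factors of inflammation and interferon rose as a rule. Irf7, the factor that amplifies type I interferon, was at 1067, 1076 and 1077 CPM in the D2HG_LPS libraries and 29.03, 25.4 and 16.5 CPM in Veh_N (5.50 ± 0.17). Nfkbiz, a nuclear partner of NF-kappaB needed for Il6 and other secondary genes, rose by 6.000 ± 0.12 and stood below Veh_LPS (293 ± 3.80 against 428 ± 29.6 CPM, -0.55 ± 0.09, edgeR quasi-likelihood Benjamini-Hochberg adjusted p = 0.00735). Irf1 rose by 3.98 ± 0.09, Batf2 by 5.58 ± 0.15 and Nfkb2 by 3.47 ± 0.09. Of 42 factors listed, 40 were tested, 27 were at least 2-fold higher and 4 at least 2-fold lower, with a median of 1.84. Bhlhe40, a repressor in the circadian and hypoxia pathways, was among the latter (-2.28 ± 0.12).

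The sensing pathway had a lower median than the factors. The coreceptor Cd14 was at 1064, 924 and 1100 CPM in the D2HG_LPS libraries and 226, 237 and 215 CPM in Veh_N (2.19 ± 0.09), Myd88 rose by 2.54 ± 0.09, and the downstream kinases Irak2 and Ikbke by 3.03 ± 0.09 and 2.04 ± 0.07. In all 12 of 32 tested genes were at least 2-fold higher and 5 at least 2-fold lower, with a median of 0.66. Feedback inhibitors were mostly higher. Nfkbia, which holds NF-kappaB in the cytoplasm, was at 1208, 1163 and 1270 CPM in the D2HG_LPS libraries and 32.9, 35.04 and 36.2 CPM in Veh_N (5.13 ± 0.11), and Socs3, an inhibitor of cytokine receptors, at 1081, 988 and 1089 CPM in the D2HG_LPS libraries and 8.21, 13.5 and 13.4 CPM in Veh_N (6.49 ± 0.17). Nfkbie rose by 4.19 ± 0.09, the phosphatase Dusp1 by 4.29 ± 0.10 and Zfp36, which destabilises cytokine mRNA, by 3.56 ± 0.09, while its relative Zfp36l1 fell (-4.51 ± 0.13). Of 28 inhibitors tested, 19 were at least 2-fold higher and 4 at least 2-fold lower, with a median of 2.56. Of the 28, 4 were below 1 CPM in a resting library.

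Enzymes of effector metabolism held some of the largest changes. Nos2, the inducible nitric oxide synthase, was at 3203, 2889 and 2990 CPM in the D2HG_LPS libraries and 2.21, 2.49 and 2.51 CPM in Veh_N (10.29 ± 0.12), and Acod1, which makes itaconate, at 8003, 7685 and 8227 CPM in the D2HG_LPS libraries and 7.998, 6.05 and 5.96 CPM in Veh_N (10.22 ± 0.14). Ptgs2, the inducible cyclooxygenase, was at 830, 842 and 873 CPM in the D2HG_LPS libraries and 0.896, 0.889 and 1.02 CPM in Veh_N (9.82 ± 0.21), and Gch1, which makes the cofactor of nitric oxide synthase, rose by 3.94 ± 0.12. No D2HG_LPS library overlapped a resting one for these 4 genes, a condition of the rule for the largest rises, which took all but Gch1. Ptgs2 was lower than in Veh_LPS (1318 ± 302 CPM, -0.64 ± 0.12), a call that was lost without any 1 of the D2HG_LPS libraries or Veh_N replicate 2. Of 26 genes listed, 24 were tested, 12 were at least 2-fold higher and 5 at least 2-fold lower, with a median of 1.11. Of the 24, 3 were below 1 CPM in a resting library. In the inflammasome and cell death list 8 of 19 tested were at least 2-fold higher and 3 at least 2-fold lower. Nlrp3, the sensor, rose by 3.27 ± 0.09, Casp4, the caspase that binds LPS in the cytosol, by 3.60 ± 0.09, the DNA sensor Aim2 by 2.40 ± 0.09, and Mlkl, the executor of necroptosis, by 3.66 ± 0.08. The list median was 0.33 and turned to -0.27 with library totals alone.

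Antigen presentation by class I rose broadly. The peptide transporter Tap1 was at 1010, 976 and 978 CPM in the D2HG_LPS libraries and 71.6, 76.9 and 72.1 CPM in Veh_N (3.75 ± 0.09), Nlrc5, the activator of class I genes, at 457, 484 and 424 CPM in the D2HG_LPS libraries and 35.9, 34.2 and 24.9 CPM in Veh_N (3.84 ± 0.13), and the peptide editor Tapbp and the class I-like gene H2-T22 rose by 2.38 ± 0.08 and 2.71 ± 0.10. Of 23 tested, 22 were called higher and 0 lower, 18 of them at least 2-fold, with a median of 2.20. Costimulatory genes made up the top of the class II list. Cd40 was at 1833, 1782 and 1914 CPM in the D2HG_LPS libraries and 6.76, 7.18 and 5.17 CPM in Veh_N (8.16 ± 0.14), and Cd274, the ligand of the checkpoint receptor PD-1, at 2608, 2657 and 2443 CPM in the D2HG_LPS libraries and 50.3, 46.7 and 41.5 CPM in Veh_N (5.80 ± 0.10). Cd83 rose by 3.20 ± 0.08 and Icosl by 3.26 ± 0.09. Of 17 tested, 8 were at least 2-fold higher and 0 at least 2-fold lower, with a median of 0.63. Of the 17, 3 were below 1 CPM in a resting library. Between D2HG_LPS and Veh_LPS edgeR called 0 of the 23 class I genes, with 0 at an unadjusted p under 0.05 and 0 called by DESeq2 or limma-voom. Of the 17 class II and costimulatory genes it called 0, with 3 at an unadjusted p under 0.05, 1 called by DESeq2 and 0 by limma-voom.

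Most regulators of macrophage identity fell. Cebpa, a factor needed for myeloid development, was at 1.85, 3.24 and 3.06 CPM in the D2HG_LPS libraries and 83.4, 99.9 and 98.8 CPM in Veh_N, a fall (-5.10 ± 0.18). Irf2bp2, a repressor of inflammatory genes, was at 14.5, 11.7 and 15.7 CPM in the D2HG_LPS libraries and 144, 140 and 163 CPM in Veh_N (-3.42 ± 0.13). The groups lay apart in both, which the rule for the largest falls required of Cebpa. Klf6 went the other way (2.44 ± 0.10). Of 28 lineage factors listed, 27 were tested, 14 were at least 2-fold lower and 6 at least 2-fold higher, with a median of -1.13. Surface genes were at least 2-fold higher or lower about as often as all genes tested (17.2% and 19.7%): of 43 tested, 9 were higher and 8 lower, with a median of -0.02. The mannose receptor Mrc1 was at 825, 844 and 736 CPM in the D2HG_LPS libraries and 1984, 1631 and 1390 CPM in Veh_N (-1.06 ± 0.13), and the antibody receptor Fcgr1 at 1291, 1237 and 1301 CPM in the D2HG_LPS libraries and 172, 188 and 160 CPM in Veh_N (2.88 ± 0.09). Clec4e, a receptor for mycobacterial glycolipid, rose by 6.03 ± 0.21 and the clearance receptor Axl by 2.74 ± 0.09. The antibody receptor Fcgr4 rose by 1.64 ± 0.07, and less than in Veh_LPS (284 ± 3.99 against 432 ± 17.8 CPM, -0.60 ± 0.07, edgeR quasi-likelihood Benjamini-Hochberg adjusted p = 9.75e-04). Cd300lb, an activating receptor of the Cd300 family, fell to 13.3 ± 1.21 CPM from 232 ± 16.9 at rest and fell further in Veh_LPS, to 6.999 ± 0.708 (0.92 ± 0.12 between these, edgeR quasi-likelihood Benjamini-Hochberg adjusted p = 0.00214).

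Other genes with large falls were Sesn1, Arhgap19, Tns1, St6gal1, Mtss1, Zfp704, Tmem86a, Arrb1, Lhfpl2, Rab3il1 and Cerk. Sesn1, which encodes a stress-induced inhibitor of the growth kinase mTORC1, was at 2.24, 4.44 and 3.85 CPM in the D2HG_LPS libraries and 257, 263 and 268 CPM in Veh_N (-6.21 ± 0.16). Arrb1, the beta-arrestin that quiets G protein-coupled receptors, was at 10.2, 10.5 and 10.3 CPM in the D2HG_LPS libraries and 272, 278 and 272 CPM in Veh_N (-4.73 ± 0.08), and St6gal1, a sialyltransferase, at 5.17, 5.21 and 4.05 CPM in the D2HG_LPS libraries and 172, 172 and 165 CPM in Veh_N (-5.13 ± 0.13). In each of the 3 the highest D2HG_LPS value was a small fraction of the lowest resting one. The others had log2 fold changes of -5.53 (Arhgap19), -5.15 (Tns1, a focal adhesion protein), -4.86 (Mtss1), -4.84 (Zfp704), -4.82 (Tmem86a, a lysoplasmalogenase), -4.66 (Lhfpl2), -4.58 (Rab3il1) and -4.31 (Cerk, ceramide kinase). Further genes with large rises were Upp1, Serpina3g, Cd69, Edn1 and Adamts4. Upp1, uridine phosphorylase, was at 116, 114 and 107 CPM in the D2HG_LPS libraries and 0, 0.178 and 0.0784 CPM in Veh_N (10.11 ± 0.26, counting interval 8.92 to 12.15 from 4 resting counts, and 11.20 without Veh_N replicate 2). Cd69, an early activation antigen, was at 2178, 2213 and 2072 CPM in the D2HG_LPS libraries and 2.28, 1.66 and 2.98 CPM in Veh_N (9.89 ± 0.15), and Serpina3g, a serpin with near-identical neighbours, at 573, 587 and 548 CPM in the D2HG_LPS libraries and 0.827, 0.534 and 0.235 CPM in Veh_N (10.01 ± 0.17). Serpina3g was lower than in Veh_LPS (1020 ± 40.01 CPM, -0.84 ± 0.10, edgeR quasi-likelihood Benjamini-Hochberg adjusted p = 9.55e-04). Edn1, the endothelin precursor, rose by 9.80 ± 0.27, or by 11.53 without Veh_N replicate 1 and 10.49 by limma-voom, and the protease Adamts4 by 9.46 ± 0.22 (counting interval 8.44 to 11.01).

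The FoxO transcription factors are held in check by insulin and growth factor signalling and turn on brakes of growth. Sesn1 is one of their targets. Foxo3 itself was at 4.97, 6.32 and 5.43 CPM in the D2HG_LPS libraries and 43.2, 47.7 and 41.8 CPM in Veh_N (-2.98 ± 0.13), and Tsc22d3, which encodes the glucocorticoid-induced leucine zipper, at 13.4, 12.04 and 12.9 CPM in the D2HG_LPS libraries and 97.02, 95.9 and 112 CPM in Veh_N (-2.99 ± 0.11). The cell cycle inhibitor Cdkn1a went up, at 1546, 1475 and 1616 CPM in the D2HG_LPS libraries and 201, 233 and 233 CPM in Veh_N (2.80 ± 0.09). Of 27 genes listed, 24 were tested, 14 were at least 2-fold lower and 3 at least 2-fold higher, with a median of -1.38. Autophagy genes had a median of -0.61, with 11 of 31 tested at least 2-fold lower and 3 at least 2-fold higher. Tecpr1, which helps autophagosomes mature, fell (-2.40 ± 0.09) and the cargo receptor Nbr1 (-1.74 ± 0.09). The cargo receptor Sqstm1 (p62) rose by 1.73 ± 0.08, above its level in Veh_LPS (1614 ± 98.9 against 1253 ± 60.4 CPM, 0.37 ± 0.08, edgeR quasi-likelihood Benjamini-Hochberg adjusted p = 0.0319), and Optn, another, by 1.58 ± 0.09.

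Lysosomal genes changed by small amounts. Of 38 tested, 20 were called lower and 9 higher, but 2 and 1 by at least 2-fold, with a median of -0.29. The 3 were Sgsh, a heparan sulfatase, at 7.998, 7.60 and 5.43 CPM in the D2HG_LPS libraries and 93.9, 109 and 105 CPM in Veh_N (-3.86 ± 0.13), Atp6v0d2, a proton pump subunit abundant in osteoclasts (-1.92 ± 0.13), and Ctsc, the cathepsin that activates granule proteases, at 1206, 1175 and 1256 CPM in the D2HG_LPS libraries and 191, 174 and 164 CPM in Veh_N (2.78 ± 0.08). The cholesterol carrier Npc2 rose by 0.89 ± 0.08. Scaling by library totals put 16 at least 2-fold lower instead of 2, and 31 lower at any size.

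Glucose transporters and several glycolytic enzymes rose. The glucose transporter Slc2a6 was at 540, 517 and 527 CPM in the D2HG_LPS libraries and 17.7, 22 and 20.5 CPM in Veh_N (4.72 ± 0.12) and the more widely used Slc2a1 at 131, 118 and 126 CPM in the D2HG_LPS libraries and 31.7, 35.6 and 27.98 CPM in Veh_N (1.98 ± 0.10). Pfkfb3, which makes the activator of phosphofructokinase, rose by 2.90 ± 0.10, the phosphofructokinase subunit Pfkp by 2.41 ± 0.09, and the hexokinase Hk1 by 1.46 ± 0.07. Lactate dehydrogenase Ldha was at 1063, 1002 and 1048 CPM in the D2HG_LPS libraries and 393, 441 and 410 CPM in Veh_N (1.32 ± 0.09). Of 26 tested, 10 were at least 2-fold higher and 4 at least 2-fold lower, with a median of 0.63. With library totals alone these counts were 5 and 7.

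Mitochondrial genes moved little and mostly upward on the TMM scale. Of 30 genes of the tricarboxylic acid cycle and pyruvate entry, 14 were called higher and 4 lower, and 1 was at least 2-fold higher. That one was Dld, a subunit shared by the 2-oxoacid dehydrogenases, at 148, 144 and 138 CPM in the D2HG_LPS libraries and 83.4, 60.95 and 64.7 CPM in Veh_N (1.04 ± 0.12). Citrate synthase Cs rose by 0.68 ± 0.07, the isocitrate dehydrogenase subunit Idh3a by 0.92 ± 0.09 and Dlst by 0.64 ± 0.07, and the median was 0.35. Cs and Dlst were no longer called with library totals (0.08 and 0.03). Nuclear genes of the respiratory chain were called higher in 39 of 53 tested cases and lower in 0, 5 of them at least 2-fold, with a median of 0.60. The 5 became 3 without Veh_N replicate 1 and 0 with upper-quartile scaling. Cox5a, a subunit of cytochrome oxidase, rose by 1.25 ± 0.11, the complex I subunit Ndufs4 by 1.20 ± 0.10, and the ATP synthase subunits Atp5b and Atp5g3 by 0.99 ± 0.08 and 0.91 ± 0.09. On the scale of library totals both medians turned, to -0.26 for the cycle and -0.0053 for the respiratory chain, where 7 genes were higher and 9 lower.

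Genes that make or remove hydroxyglutarate were described one by one, since the ester carries D2HG. D2hgdh, the mitochondrial dehydrogenase that oxidises D2HG, was at 4.19, 3.93 and 4.05 CPM in the D2HG_LPS libraries and 11.4, 10.1 and 10.3 CPM in Veh_N (-1.38 ± 0.15, edgeR quasi-likelihood Benjamini-Hochberg adjusted p = 2.07e-06). Adhfe1, a transhydrogenase that forms D2HG from gamma-hydroxybutyrate and alpha-ketoglutarate, was at 5.46, 5.12 and 4.93 CPM in the D2HG_LPS libraries and 0.759, 1.36 and 0.627 CPM in Veh_N (2.44 ± 0.27). The groups did not overlap in either. Idh1, the cytosolic isocitrate dehydrogenase, was at 69.7, 67.6 and 83.3 CPM in the D2HG_LPS libraries and 263, 249 and 267 CPM in Veh_N (-1.82 ± 0.10), while mitochondrial Idh2, at 67.4, 70.2 and 74.1 CPM in the D2HG_LPS libraries and 61.3, 69.5 and 67.2 CPM in Veh_N, was not called (0.10 ± 0.09, edgeR quasi-likelihood Benjamini-Hochberg adjusted p = 0.351) and changed sign with upper-quartile scaling (-0.20) and with library totals (-0.51). Phgdh, the serine synthesis enzyme that can reduce alpha-ketoglutarate to D2HG, was at 17.7, 15.2 and 16.7 CPM in the D2HG_LPS libraries and 4.55, 4.63 and 3.53 CPM in Veh_N (1.95 ± 0.15). Of 18 tested, 4 were at least 2-fold higher and 3 at least 2-fold lower. The median of 0.18 turned to -0.12 with upper-quartile scaling and -0.42 with library totals. Between D2HG_LPS and Veh_LPS 0 of the 18 were called by edgeR, DESeq2 or limma-voom, and 2 had an unadjusted p under 0.05 by edgeR. For D2hgdh the difference was 0.11 ± 0.17, for Idh1 -0.24 ± 0.10, for Phgdh 0.15 ± 0.14 and for Adhfe1 -0.53 ± 0.21.

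Dioxygenases that use alpha-ketoglutarate, the enzymes at which D2HG competes, were lower at the median (-0.31), with 18 of 34 tested called lower, 11 higher, and 4 and 5 at least 2-fold. The collagen hydroxylases P4ha1 and Plod3 rose by 2.01 ± 0.09 and 2.01 ± 0.10, and Riox2, a ribosomal protein hydroxylase, by 1.97 ± 0.09. The histone demethylase Kdm2b fell (-2.47 ± 0.16). Genes induced by hypoxia were not moved in 1 direction: 8 of 24 tested were at least 2-fold higher and 8 at least 2-fold lower, with a median of -0.20. Hif1a, the oxygen-regulated factor, rose by 1.28 ± 0.14. Among monocarboxylate and organic acid transporters 2 of 12 tested were at least 2-fold higher and 1 at least 2-fold lower. The lactate transporters Slc16a1 and Slc16a3 rose by 1.86 ± 0.13 and 0.95 ± 0.10, the aromatic amino acid transporter Slc16a10 by 0.89 ± 0.08, and Slc16a7 fell (-1.71 ± 0.20). The list median of 0.44 turned to -0.17 with library totals.

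Sterol and fatty acid genes included rises and falls. The cholesterol exporter Abca1, a target of the liver X receptors, was at 63.8, 64.97 and 62.96 CPM in the D2HG_LPS libraries and 607, 522 and 438 CPM in Veh_N (-3.03 ± 0.15), below Veh_LPS as well (126 ± 24.4 CPM, -0.98 ± 0.14, edgeR quasi-likelihood Benjamini-Hochberg adjusted p = 0.00326). The desaturase Scd2 was at 85.7, 96.6 and 89.6 CPM in the D2HG_LPS libraries and 693, 654 and 506 CPM in Veh_N (-2.77 ± 0.12), and Soat1, which esterifies cholesterol, fell (-1.41 ± 0.08). Ch25h, which makes 25-hydroxycholesterol, rose by 8.41 ± 0.24 (counting interval 7.32 to 10.17 from 5 resting counts, and 9.15 without Veh_N replicate 3). Of 16 liver X receptor targets tested, 6 were at least 2-fold lower and 3 at least 2-fold higher, with a median of -0.54. In cholesterol synthesis, 4 of 24 tested were at least 2-fold higher and 3 at least 2-fold lower, near the shares over all genes. Stard4, which carries cholesterol between membranes, fell (-1.53 ± 0.10). The list median of 0.15 turned to -0.15 with upper-quartile scaling and -0.46 with library totals.

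Lpin1, the phosphatidate phosphatase of triglyceride synthesis, almost disappeared: it was at 0.683, 0.854 and 0.691 CPM in the D2HG_LPS libraries and 51.2, 60.2 and 57.1 CPM in Veh_N (-6.21 ± 0.19). Fads1 fell (-1.67 ± 0.08), and 7 of 25 genes of fatty acid synthesis and storage were at least 2-fold lower against 4 at least 2-fold higher, with a median of -0.20. Plin2, which coats lipid droplets, was one of the latter, at 1810, 1670 and 1836 CPM in the D2HG_LPS libraries and 662, 739 and 703 CPM in Veh_N (1.34 ± 0.09). Fatty acid oxidation had a median of -0.04, with 3 of 29 at least 2-fold higher and 5 at least 2-fold lower. The acyl-CoA synthetases Acsl1 and Acsl3 changed in opposite directions (2.68 ± 0.11 and -3.17 ± 0.18), and Acox3 and Acadm fell (-1.40 ± 0.09 and -1.07 ± 0.08).

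Stress response genes were mostly higher. The heat shock pair Hspa1a and Hspa1b, near-identical copies whose counts may be shared, were at 35.6, 32.2 and 37.8 CPM in the D2HG_LPS libraries and 0.896, 0.712 and 0.549 CPM in Veh_N (5.58 ± 0.19) and at 34.04, 32.6 and 31.7 CPM in the D2HG_LPS libraries and 0.621, 0.474 and 0.705 CPM in Veh_N (5.77 ± 0.17). Both exceeded Veh_LPS (17.2 ± 2.31 and 16.1 ± 1.27 CPM, 1.03 ± 0.13 and 1.03 ± 0.11, edgeR quasi-likelihood Benjamini-Hochberg adjusted p = 0.00119 and 4.97e-04). The cochaperones Dnaja1 and Stip1 rose by 2.29 ± 0.10 and 1.66 ± 0.08. Of 18 tested, 8 were at least 2-fold higher and 0 at least 2-fold lower, with a median of 0.75. Genes of the integrated stress response and amino acid supply, targets of Atf4, had a median of 1.45, with 18 of 26 tested at least 2-fold higher and 0 at least 2-fold lower. Nupr1, a stress-induced chromatin protein, was at 118, 99.7 and 109 CPM in the D2HG_LPS libraries and 6.69, 6.94 and 8.39 CPM in Veh_N (3.89 ± 0.13), above Veh_LPS (77.8 ± 8.80 CPM, 0.48 ± 0.11, edgeR quasi-likelihood Benjamini-Hochberg adjusted p = 0.0370). Mthfd2, of mitochondrial one-carbon metabolism, rose by 2.81 ± 0.10, Psat1, of serine synthesis, by 2.38 ± 0.09, and the tryptophanyl-tRNA synthetase Wars by 2.87 ± 0.08.

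Antioxidant genes had a median of 0.54, with 7 of 30 tested at least 2-fold higher and 2 at least 2-fold lower. Mitochondrial superoxide dismutase Sod2 was at 885, 823 and 976 CPM in the D2HG_LPS libraries and 43.9, 40.7 and 38.7 CPM in Veh_N (4.44 ± 0.10). Thioredoxin Txn1 rose by 2.16 ± 0.10, peroxiredoxin Prdx1 by 1.85 ± 0.09 and Keap1, the inhibitor of NRF2, by 2.01 ± 0.08. The median turned to -0.06 with library totals. In the unfolded protein response the chaperone Hspa5 rose by 1.32 ± 0.08, Pdia6 by 0.85 ± 0.07 and Dnajb11 by 0.998 ± 0.08, whereas the sensor kinase Eif2ak3 fell (-2.02 ± 0.14). Of 23 tested there 1 was at least 2-fold higher and 4 at least 2-fold lower, with a median of 0.35 that turned to -0.25 with library totals. Proteasome genes moved together. All 31 tested were called higher and 15 at least 2-fold, within a narrow range of 0.44 to 1.85, and Psma6, at 311, 298 and 344 CPM in the D2HG_LPS libraries and 90.5, 85.8 and 87.6 CPM in Veh_N, had the largest change (1.85 ± 0.08). Psma4 rose by 1.52 ± 0.08, Psmd7 by 1.40 ± 0.08 and Psmd11 by 1.35 ± 0.09, and with library totals 19 of 31 were called higher, 2 of them at least 2-fold. Ribosomal protein genes, of which 55 of 65 listed were tested, had 45 not called, 8 higher and 2 lower. Rps24 rose by 0.73 ± 0.12, but was not called with library totals (0.12). Rps20 (0.49 ± 0.12) and Rpl14 (0.37 ± 0.10) turned to -0.12 and -0.24 with library totals. Rpl10a (-3.14 ± 0.52) rested on 6 counts in all in D2HG_LPS (counting interval -4.69 to -2.02) and was at -4.09 without D2HG_LPS replicate 1. Processed copies of these genes make their counts uncertain.

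Most genes of mitosis fell. Kif20a, a kinesin of cytokinesis, was at 8.58, 11.4 and 8.09 CPM in the D2HG_LPS libraries and 68.2, 65.7 and 61.6 CPM in Veh_N (-2.79 ± 0.13). Kif23, another kinesin of the spindle midzone, was at 4.49, 4.78 and 6.32 CPM in the D2HG_LPS libraries and 66.5, 63.98 and 54.9 CPM in Veh_N (-3.57 ± 0.15). The phosphatase Cdc25b, which starts mitosis, was at 7.41, 8.28 and 6.91 CPM in the D2HG_LPS libraries and 63.99, 63.2 and 65.2 CPM in Veh_N (-3.08 ± 0.11). No D2HG_LPS library reached a resting one in any of the 3. Of 36 tested, 27 were at least 2-fold lower and 2 at least 2-fold higher, with a median of -1.59. Pttg1, securin, was an exception, at 139, 128 and 138 CPM in the D2HG_LPS libraries and 14.8, 16.8 and 16.8 CPM in Veh_N (3.06 ± 0.10). Genes of replication and G1/S were more mixed, with 11 of 44 at least 2-fold lower, 6 at least 2-fold higher and a median of -0.33. Ccnd2, cyclin D2, was at 675, 674 and 639 CPM in the D2HG_LPS libraries and 16.4, 14.6 and 10.6 CPM in Veh_N (5.57 ± 0.14), and Rfc3 and Mcm10 rose by 2.28 ± 0.12 and 1.82 ± 0.12, while the factor E2f2 fell (-3.09 ± 0.18). The promoter of Cdc20, the activator of the anaphase-promoting complex (chosen after its value was seen, -3.50 ± 0.17), is printed as an example of the cell cycle homology type TTTGAA (capitals, 18 bases before the start, found on either strand). It lies on the minus strand at chr4:118437294-118437593 (RefSeq, GRCm38.p6).
Cdc20: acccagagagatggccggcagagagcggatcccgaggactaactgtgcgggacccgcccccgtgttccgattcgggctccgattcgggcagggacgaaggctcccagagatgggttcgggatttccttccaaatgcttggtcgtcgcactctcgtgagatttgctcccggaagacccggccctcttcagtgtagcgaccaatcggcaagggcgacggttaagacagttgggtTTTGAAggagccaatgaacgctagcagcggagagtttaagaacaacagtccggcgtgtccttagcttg
TTTGAA was found in 23 of 32 promoters (71.9%) of the mitosis list and in 17.9% of all promoters in the table. The promoter of Ccnb1, not printed, held none. Lists that rose held it too, in 5 of 12 promoters of the GTPases and 11 of 36 of the interferon-stimulated list. Among promoters of genes at least 2-fold lower the share was 14.8%, of those at least 10-fold lower 13.04%, and of those at least 2-fold higher 12.7%. These classes come from the genes tested, whose promoters held TTTGAA in 12.2%, and those of genes not called in 10.7%.

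Genes that regulate cell death were more often higher than lower. Bcl2a1b was at 304, 291 and 307 CPM in the D2HG_LPS libraries and 25.4, 27.8 and 27.4 CPM in Veh_N (3.48 ± 0.08) and Bcl2a1d at 50.6, 40.3 and 48.9 CPM in the D2HG_LPS libraries and 0.896, 0.474 and 0.627 CPM in Veh_N (6.12 ± 0.19), members of a cluster of near-identical inhibitors of apoptosis. The ubiquitin ligase Birc3 rose by 2.56 ± 0.08 and the death receptor Fas by 3.32 ± 0.09. In the list 11 of 23 tested were at least 2-fold higher and 2 at least 2-fold lower, with a median of 0.96. Adhesion and matrix genes had 16 of 36 tested at least 2-fold higher and 4 at least 2-fold lower, with a median of 0.98. Of the 36, 5 were below 1 CPM in a resting library. Icam1, a ligand of leukocyte integrins, was at 1897, 1884 and 1878 CPM in the D2HG_LPS libraries and 62.2, 65.3 and 60.1 CPM in Veh_N (4.91 ± 0.08), Mmp13, a collagenase, at 1147, 1253 and 1104 CPM in the D2HG_LPS libraries and 12.6, 12.3 and 9.33 CPM in Veh_N (6.67 ± 0.13), and Mmp14, a membrane protease, rose by 7.37 ± 0.11.

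Iron genes moved in both directions. Slc40a1, ferroportin, the cell's iron exporter, was at 18.4, 19.98 and 22.01 CPM in the D2HG_LPS libraries and 452, 375 and 408 CPM in Veh_N (-4.35 ± 0.12). Lcn2, which binds bacterial iron carriers, was at 54.5, 53.7 and 61.5 CPM in the D2HG_LPS libraries and 2.62, 2.73 and 2.19 CPM in Veh_N (4.48 ± 0.12), Slc11a2, an iron importer, rose by 2.37 ± 0.08, and Cp, the ferroxidase ceruloplasmin, by 5.32 ± 0.13, to less than in Veh_LPS (87.5 ± 2.39 against 140 ± 16.3 CPM, -0.68 ± 0.09, edgeR quasi-likelihood Benjamini-Hochberg adjusted p = 0.00222). Of 21 tested, 9 were at least 2-fold higher and 3 at least 2-fold lower. The median of 0.41 turned to -0.20 with library totals. Receptors for lipid mediators and purines moved in both directions, with 17 of 36 tested at least 2-fold lower and 11 at least 2-fold higher and a median of -0.44. Of the 30 with at least 1 CPM in every resting library, 17 were at least 2-fold lower and 6 at least 2-fold higher, with a median of -1.68. Gpr84, a receptor for medium-chain fatty acids, was at 92.7, 89.9 and 96.2 CPM in the D2HG_LPS libraries and 0.621, 1.36 and 0.705 CPM in Veh_N (6.63 ± 0.18). The adenosine receptor Adora2a rose by 7.62 ± 0.22 (8.72 without Veh_N replicate 2) and the lysophosphatidic acid receptor Lpar1 by 8.26 ± 0.26 (counting interval 7.24 to 9.81, and 9.05 without Veh_N replicate 2). The cannabinoid receptor Cnr2 was at 2.93, 2.56 and 3.16 CPM in the D2HG_LPS libraries and 45.03, 47.1 and 46.6 CPM in Veh_N (-4.01 ± 0.12), less of a fall than in Veh_LPS (1.17 ± 0.0964 CPM, 1.30 ± 0.20, edgeR quasi-likelihood Benjamini-Hochberg adjusted p = 0.00525).

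**Figure D3:**
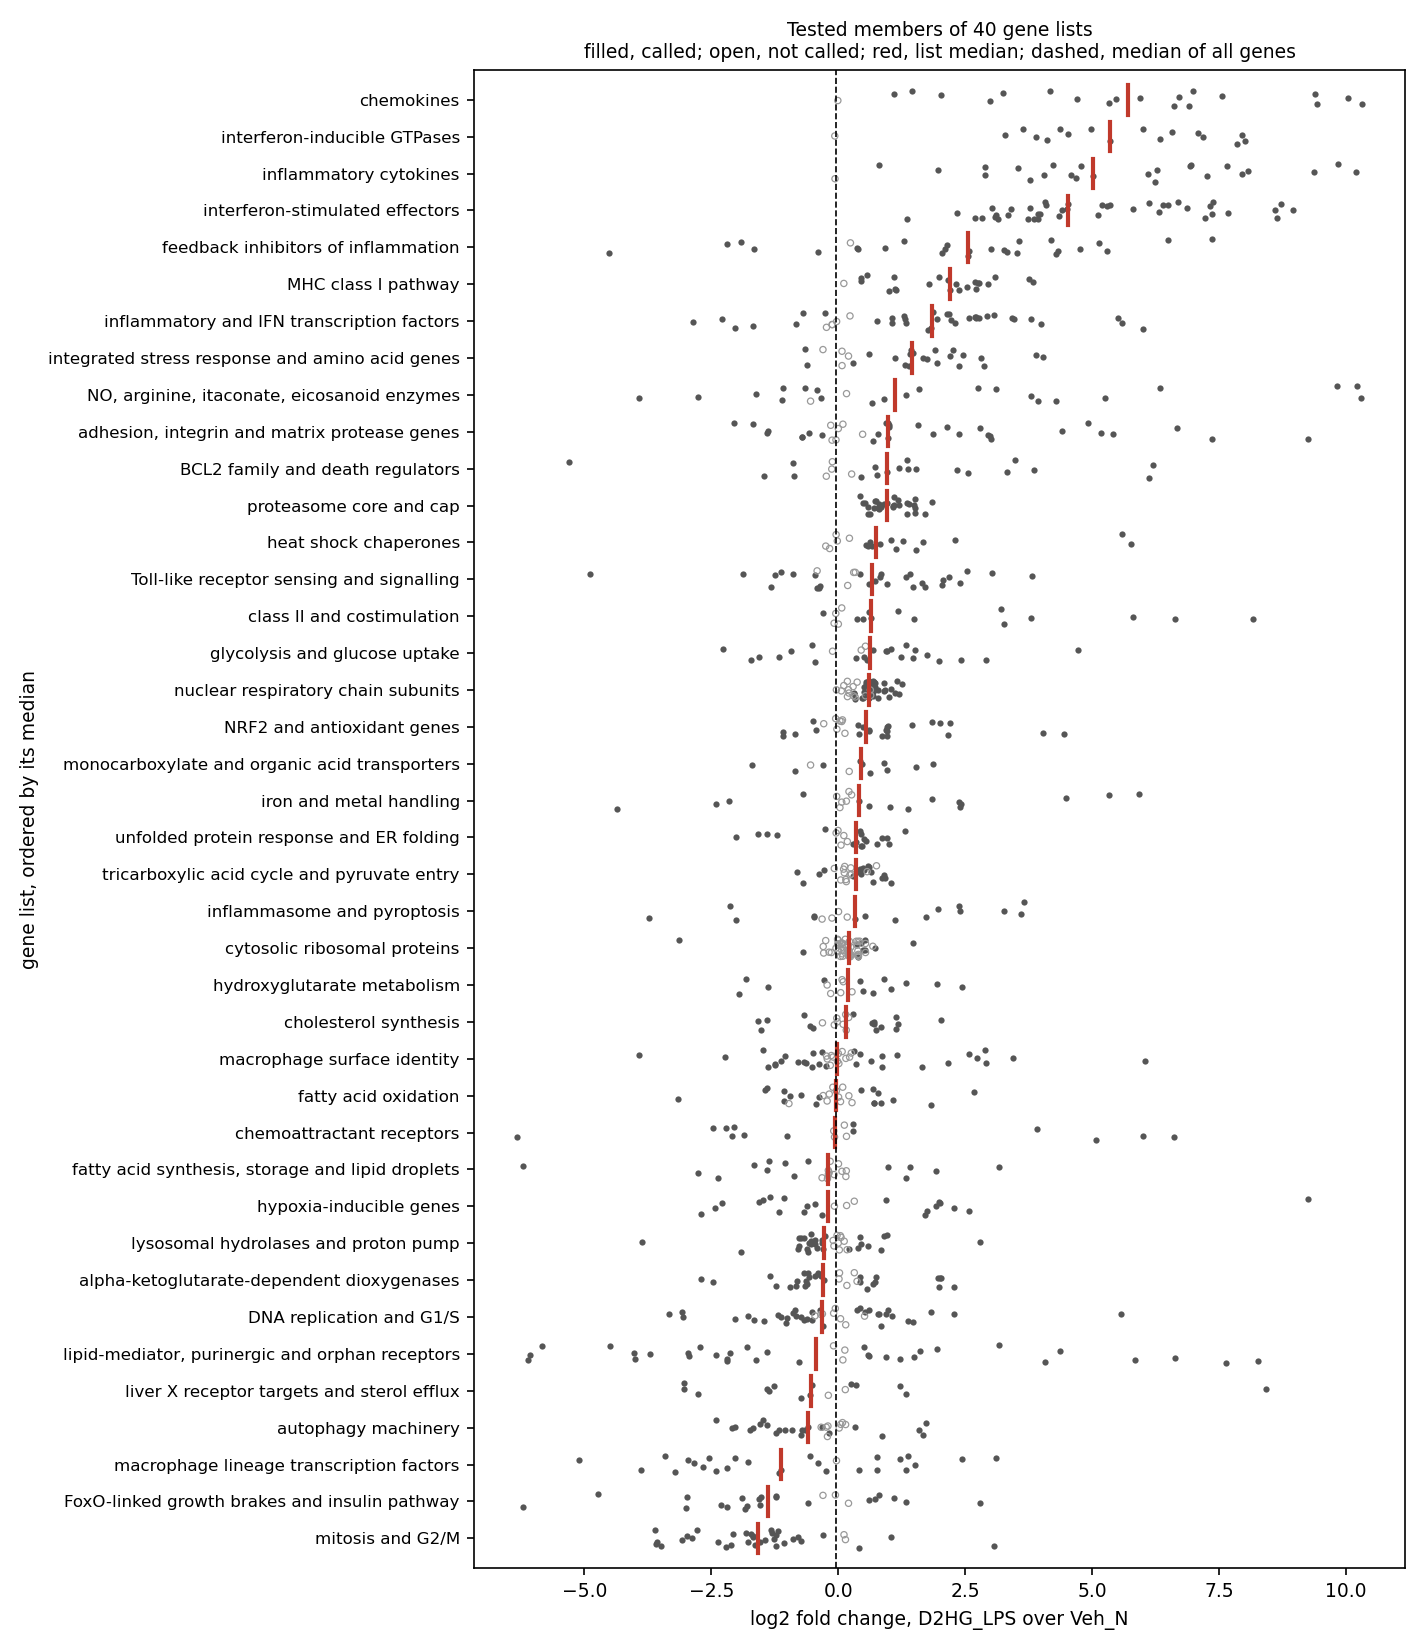
Log2 fold changes of D2HG_LPS over Veh_N (x axis) for the tested members of 40 gene lists (y axis), ordered by list median (red bar). Filled points were called and open points were not. The dashed line is the median of all genes tested, -0.04. Genes without counts in one state are drawn at their floor. Chemokines, GTPases, cytokines and interferon-stimulated genes lie at the top, and mitosis, FoxO-linked genes and lineage factors at the bottom.

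Some genes had counts in 1 state alone. In 32 tested genes every resting library had 0 counts, and in 9 every D2HG_LPS library had 0. With the silent state set to 3 counts in each library, Bcl2a1a was at least 73.4-fold higher in D2HG_LPS (153, 180 and 154 counts), Mir155hg, the host transcript of miR-155, at least 60.3-fold (120, 161 and 121 counts), and the phospholipase Pla1a at least 30.01-fold. The near-identical copies Bcl2a1b and Bcl2a1d had counts at rest. How reads that match several copies were counted is not stated, so the 0 of Bcl2a1a may depend on it. The integrin subunit Itgb8, the activin inhibitor Fst (follistatin) and Tpbg were at least 28.1-fold, 20.1-fold and 19.7-fold higher. For Itgb8 and Fst the D2HG_LPS level (5.80 ± 0.526 and 4.15 ± 0.0479 CPM) was below that of Veh_LPS (12.6 ± 3.19 and 8.63 ± 1.31 CPM, -1.12 ± 0.21 and -1.05 ± 0.19 on the log2 scale, edgeR quasi-likelihood Benjamini-Hochberg adjusted p = 0.0231 and 0.0173). In the other direction Nat8l, which makes N-acetylaspartate, was at least 25.96-fold lower in D2HG_LPS (103, 110 and 106 counts in Veh_N) and Frat2, a Wnt pathway gene, at least 21.9-fold lower. The next 4, Gm17745, Kcne3, Smim10l2a and Galnt9, were at least 4.41-fold to 6.23-fold lower.

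The makeup of the RNA differed between the states. Genes called at least 2-fold higher took 44.8% to 45.2% of the counts of a D2HG_LPS library against 11.9% to 12.9% at rest, and those at least 2-fold lower took 2.81% to 2.92% against 14.2% to 14.5%. The number of genes that together held 50% of the counts was 376 to 384 in D2HG_LPS and 577 to 645 in Veh_N, while the 10 most abundant genes held 12.4% to 12.5% in D2HG_LPS and 12.6% to 14.2% in Veh_N. With each gene counted by its RefSeq row of highest total, Rsad2 was the most abundant gene of each D2HG_LPS library, at 2.30 ± 0.0288% of counts (SD, n = 3) against 0.00876 ± 0.00214% at rest. Cmpk2 (1.08 ± 0.00567%), Cxcl10 (0.831 ± 0.00773%), Ifit2 (0.825 ± 0.0392%), Actb, beta-actin (1.22 ± 0.0323% from 0.480 ± 0.0456%), Acod1 (0.703 ± 0.0205%), the ADP-ribosyltransferase Parp14 (0.409 ± 0.0111%) and Gbp2 (0.351 ± 0.00773%) followed in gain. Among the largest losses, Psap, the precursor of lysosomal saposins, went from 1.97 ± 0.112% to 0.864 ± 0.0234%, the cathepsins Ctsb from 2.71 ± 0.177% to 1.66 ± 0.0190% and Ctsd from 1.88 ± 0.160% to 0.988 ± 0.0138%, Gpnmb from 1.69 ± 0.0720% to 1.01 ± 0.0181% and lysozyme Lyz2 from 1.15 ± 0.166% to 0.501 ± 0.0243%. Selenop, a secreted selenium carrier, fell from 0.602 ± 0.0638% to 0.0637 ± 0.00268%, and the receptor Sirpa and the scavenger protein Cd5l also lost share. A fall in share is not always a fall on the TMM scale, where Ctsb (-0.10 ± 0.07) and Gpnmb (-0.14 ± 0.07) were not called (edgeR quasi-likelihood Benjamini-Hochberg adjusted p = 0.226 and 0.0991), while Psap (-0.58 ± 0.07), Ctsd (-0.32 ± 0.09), Lyz2 (-0.59 ± 0.10), Selenop (-2.63 ± 0.09), Sirpa (-1.25 ± 0.07) and Cd5l (-1.53 ± 0.08) fell. Ctsb and Gpnmb were called lower with upper-quartile scaling and with library totals (-0.71 and -0.74 with the latter), and Gpnmb also by limma-voom. With the isoforms of a gene summed, which counts shared reads more than once, the share of Rsad2 in D2HG_LPS was 1.41%, that of Cmpk2 0.660%, of Cxcl10 0.510% and of Acod1 0.432%. Psap then held 3.18 ± 0.0804% in D2HG_LPS and 6.77 ± 0.397% at rest and was the most abundant gene in every library of both states, with Rsad2 in place 4 in each D2HG_LPS library. Each of the 16 genes kept the direction of its share.

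**Figure D4:**
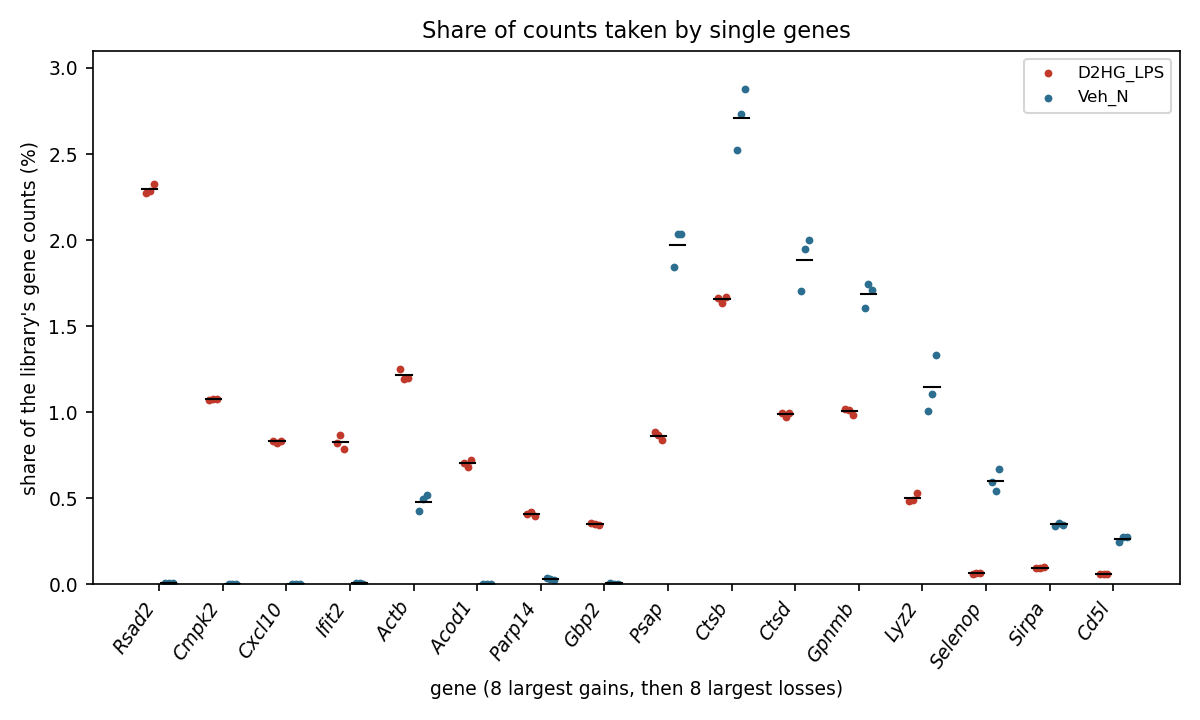
Share of a library's gene counts (y axis, percent; 1 RefSeq row per gene) for the 8 genes with the largest gain and the 8 with the largest loss. Each point is a library (3 per group) and each bar a mean. Rsad2 rises from near 0 to 2.30%, below the 2.71% that Ctsb holds at rest.

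Some genes were placed differently from LPS without the ester. A few genes had a log2 fold change below 0.5 in size for Veh_LPS over rest and were called in D2HG_LPS against both rest and Veh_LPS. Some of them were called between Veh_LPS and rest too, and some of their changes from rest in D2HG_LPS were also below 0.5. Cpt1a, which commits fatty acids to mitochondrial oxidation, was at 168, 181 and 171 CPM in D2HG_LPS, 110, 112 and 99.6 in Veh_N and 95.7, 88.9 and 108 in Veh_LPS (0.69 ± 0.09 over rest, 0.83 ± 0.09 over Veh_LPS). All 3 D2HG_LPS libraries lay above all 6 others. Hilpda, which slows the lipase of lipid droplets, showed the same order, at 17.3, 17.6 and 19.5 CPM in D2HG_LPS, 4.41, 4.57 and 5.49 in Veh_N and 4.25, 4.99 and 4.38 in Veh_LPS (1.91 ± 0.14 over rest, edgeR quasi-likelihood Benjamini-Hochberg adjusted p = 4.57e-08). Plin2, of the same droplets, was at 1039, 1076 and 908 CPM in Veh_LPS, above rest (0.52) and below D2HG_LPS (0.81 ± 0.08). Smox, spermine oxidase, rose by 0.79 ± 0.10 over rest, the B cell and macrophage receptor Cd72 by 0.74 ± 0.08 and the chromatin protein Hmgn1 by 0.84 ± 0.09, and these 3 were called higher than Veh_LPS too (0.63, 0.53 and 0.62). With library totals Cpt1a (0.09), Smox (0.18) and Cd72 (0.13) were no longer called over rest. Srxn1, sulfiredoxin, an NRF2 target, was at 141, 127 and 153 CPM in the D2HG_LPS libraries and 88.1, 95.4 and 94.9 CPM in Veh_N and 66.2, 81.6 and 86.8 CPM in Veh_LPS (0.60 ± 0.11 over rest, but -0.01 with library totals). Unc13d (0.51 ± 0.08) and Fam214b (0.24 ± 0.08) were called higher than rest too, at -0.10 and -0.37 with library totals, and Fam214b was at -0.06 with upper-quartile scaling. For Veh_LPS over rest, Cd72 was called higher (0.21) and Fam214b lower (-0.28).

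Genes on the other side were lower in D2HG_LPS than in both other groups. Nabp1 fell (-0.85 ± 0.12) from rest, Frmd4b (-0.71 ± 0.07), Sqle, squalene epoxidase of cholesterol synthesis, (-0.68 ± 0.13), Wdr62 (-0.44 ± 0.13), the lineage factor Maf (-0.40 ± 0.10), Clec4a1 (-0.27 ± 0.11), D17H6S56E-5 (-0.21 ± 0.07) and Ptpro (-0.20 ± 0.08). For Maf the levels were 356, 384 and 379 CPM in the D2HG_LPS libraries and 555, 450 and 472 CPM in Veh_N, with 475, 482 and 568 in Veh_LPS. Veh_LPS itself was called below rest for Frmd4b (-0.32) and above rest for Clec4a1 (0.36) and D17H6S56E-5 (0.17). With the replicate number as a block in the fit, the calls of all 8 against Veh_LPS were lost, and those of Clec4a1 and Ptpro against rest. Several of these calls rested on single libraries. Against Veh_LPS the call was lost without any 1 of the D2HG_LPS libraries for all 8 but Clec4a1, and for Clec4a1 without D2HG_LPS replicate 1 or 3. It was lost for Nabp1, Frmd4b and D17H6S56E-5 also without Veh_LPS replicate 1, for Wdr62 without Veh_LPS replicate 1 or 3 or Veh_N replicate 2, and for Maf, Ptpro and Sqle without any 1 Veh_LPS library or Veh_N replicate 2. Against rest the call was lost for Clec4a1 without any 1 D2HG_LPS library or Veh_N replicate 1 or 2, for D17H6S56E-5 without D2HG_LPS replicate 1 or 2 or Veh_N replicate 1, for Wdr62 without D2HG_LPS replicate 3, and for Ptpro without D2HG_LPS replicate 1 or 3, Veh_LPS replicate 1 or 2 or Veh_N replicate 1 or 2. DESeq2, its size factors in edgeR, and the filter of 1 CPM in every resting library each ended the calls of Clec4a1 and Ptpro against rest, and that of Ptpro was also lost with no filter on low counts and in a fit of only the 6 libraries compared. Against Veh_LPS, the calls of Maf, Wdr62, Ptpro and Sqle were lost with library totals, those of Wdr62 and Sqle with summed isoforms, and that of Sqle with limma-voom and with the filter at rest. Among the higher genes, the calls of Fam214b, Unc13d and Smox over Veh_LPS were lost without D2HG_LPS replicate 1, and that of Unc13d also without Veh_LPS replicate 1. The call of Fam214b over rest was lost without D2HG_LPS replicate 1.

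Slc16a6, named among the carriers of monocarboxylates, crossed the resting level. It was at 64.5, 73.5 and 58.7 CPM in D2HG_LPS and 43.5, 43.1 and 41.1 in Veh_N, and at 6.91, 8.06 and 9.54 in Veh_LPS. All 3 D2HG_LPS libraries lay above all resting ones, and all Veh_LPS libraries below. Its log2 fold change over rest was 0.62 ± 0.11 (edgeR quasi-likelihood Benjamini-Hochberg adjusted p = 1.98e-04, and 0.02, no longer called, with library totals), against -2.37 for Veh_LPS over rest, and the difference between both LPS-treated groups was 2.998 ± 0.13 (edgeR quasi-likelihood Benjamini-Hochberg adjusted p = 1.61e-07). The predicted gene Gm45916, which lies beside it and may share its reads since no strand setting is stated in the sources used here, gave 0.62 ± 0.14 and -2.34. Trib3, a pseudokinase of the integrated stress response, was at 6.44, 6.06 and 7.20 CPM in the D2HG_LPS libraries and 3.79, 4.33 and 4.86 CPM in Veh_N and at 2.37, 2.55 and 1.75 in Veh_LPS (0.60 ± 0.18 over rest). Pdgfa, a growth factor, was at 7.998, 6.49 and 6.91 CPM in the D2HG_LPS libraries and 4.76, 5.69 and 5.56 CPM in Veh_N and at 3.56, 3.71 and 2.98 in Veh_LPS (0.41 ± 0.16). With library totals Trib3 and Pdgfa stood at -0.0036 and -0.19 over rest, neither was called with upper-quartile scaling, DESeq2 did not call Pdgfa, nor did edgeR with no filter on low counts or with the replicate block, and the call of Pdgfa over rest was lost without D2HG_LPS replicate 1 or 3 or Veh_N replicate 1, and over Veh_LPS without D2HG_LPS replicate 1. Niban2, a stress-linked adaptor, had overlapping D2HG_LPS and resting libraries (0.20 ± 0.08 over rest, -0.49 for Veh_LPS over rest). It turned to -0.10 with upper-quartile scaling and -0.41 with library totals, and its call over rest was lost with no filter on low counts, with the replicate block, with summed isoforms, and without D2HG_LPS replicate 1 or 3, Veh_LPS replicate 1 or Veh_N replicate 1 or 3. Arrdc3, an arrestin-domain gene of the FoxO-linked list, kept part of its resting level: it was at 19.2, 22.03 and 16.6 CPM in the D2HG_LPS libraries and 111, 89.8 and 85.6 CPM in Veh_N and at 3.46, 3.50 and 2.54 in Veh_LPS (-2.30 ± 0.13 over rest, 2.62 ± 0.18 over Veh_LPS, edgeR quasi-likelihood Benjamini-Hochberg adjusted p = 5.68e-09 and 1.22e-05). The resting libraries enter both comparisons with rest, so these values are side by side and not independent.

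**Figure D5:**
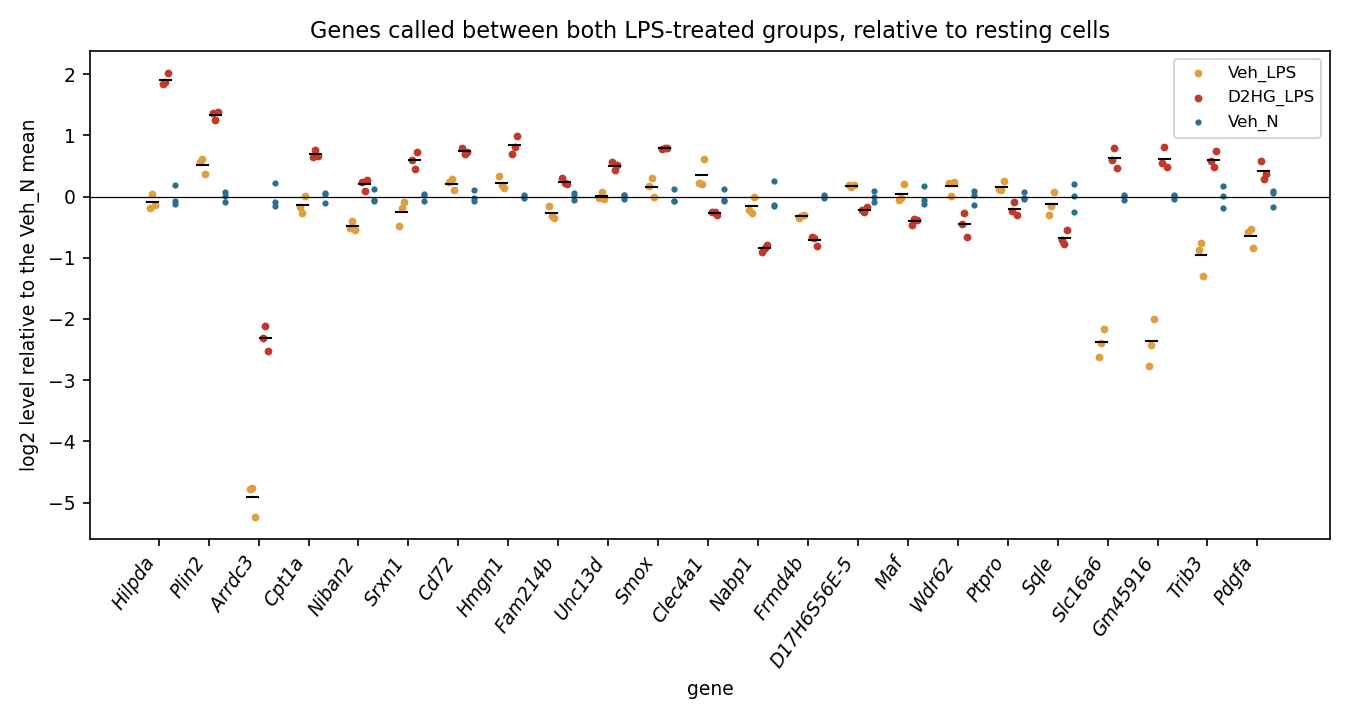
Levels of 23 genes in the 3 groups, as log2 of the level over the mean of the resting libraries (y axis, 0 is rest). Each point is a library (3 per group) and each bar the mean of an LPS-treated group. Slc16a6, Gm45916, Trib3 and Pdgfa lie above rest in D2HG_LPS and below it in Veh_LPS, and Cpt1a and Hilpda rise in D2HG_LPS alone among the LPS-treated groups.

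Many changed genes stood side by side in the genome. Taking the tested genes in reference order, 51 runs of at least 4 neighbours were all at least 2-fold higher and 39 all at least 2-fold lower. Runs of 6 or more were found 14 and 4 times. Of all genes tested, 17.2% and 19.7% were in these classes, and how many runs such shares give by themselves was not tested. Some runs count separately genes named for 1 locus, such as Slfn5 and Slfn5os. The longest, 12 genes on chromosome 1, ran from Aim2 through the Ifi200 family of DNA sensors (Ifi204, Ifi205 and others), with log2 fold changes of 1.71 to 8.95. On chromosome 11 a run of 9 held Irgm1, Tgtp1, Tgtp2 and Ifi47, and a run of 7 held Ccl2, Ccl7, Ccl12 and Ccl8. A run of 7 on chromosome 3 held Gbp5, Gbp7, Gbp3 and Gbp2, a run of 6 on chromosome 19 the Ifit genes, and a run of 7 on chromosome 14 the Phf11 genes. The longest lower run, 8 genes on chromosome 2, held zinc finger genes such as Zfp970, Zfp971 and Zfp931, at -1.66 to -4.38. Members of such families are similar in sequence, and how reads that match several of them were counted is not stated.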

How the data were processed

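Strand-specific mRNA libraries (Qiagen RNeasy, then KAPA mRNA Hyper-Prep, per the labels' protocols) were made from 9 macrophage samples. Groups were taken from the sample titles. STAR 2.5.2b and DESeq2 are named in the submitters' processing notes, which list mm10 and mm9 with no role. Neither the counting tool nor its use of strand is stated in the sources used here. The authors deposited 1 table of 35745 RefSeq transcript rows, taken as raw read counts from its values (whole numbers whose sums differ between libraries). Rows were matched to genes through RefSeq (35440) and GENCODE (188) identifiers, and 117 unmatched rows (0.676% to 2.37% of counts) were left out. The row with the highest total was kept for each gene. Counts were filtered (filterByExpr), scaled by TMM and fitted over all 9 libraries with edgeR 4.0.16 in R 4.3.3 (glmQLFit with robust=TRUE, glmQLFTest, two-sided, group as the only term). A gene counts as called where its Benjamini-Hochberg adjusted p is under 0.05. Replicates differed by more than counting noise, so none was taken as a copy. Intervals (95%, exact binomial) and floors (3 counts per library) cover counting error only.

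The comparison, the lists and the rule for named genes were chosen with earlier results of these data known. The rule took the 15 largest rises and falls among called genes (mean level 3 or more in log2 CPM, no overlap of groups, predicted genes left out), up to 4 members of smallest p per list, the 8 largest gains and losses of share, 6 genes at 0 in a state each way, genes called against Veh_LPS as well, and 26 fixed genes, of which Arg1 had too few counts to test. Some genes the rule takes are not reported here. Other names are marked in the text as chosen later, or are markers, genes at 0 or members of neighbouring runs. DESeq2 1.42.0, limma 3.58.1 (voom), other scalings and filters, summed isoforms, a replicate block and leaving out each library were the alternatives. The tests were checked on simulated data in which few genes differed, in random directions. That setting does not check the scaling or the calls of a comparison in which most genes differ. Motifs were searched on both strands with Python 3.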

Additional observations from a re-analysis of the deposited data

How the results depend on the processing

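Counts for D2HG_LPS over Veh_N were within 1.5 times under every alternative but library totals, which gave 2178 genes higher and 7283 lower, and 1257 and 4237 at 2-fold. The smaller comparison, D2HG_LPS over Veh_LPS (245 genes), gave 509 by DESeq2, 450 from only the 6 libraries compared, and 64 (without D2HG_LPS replicate 1) to 501 (without Veh_N replicate 1) when 1 library was left out. The cause was not tested.

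Replicate numbers did not pair the samples (correlations of same-numbered deviations in D2HG_LPS and Veh_N were -0.029, -0.03 and 0.191). With the replicate block 3973 genes were higher and 4144 lower than Veh_N, and 93 were called against Veh_LPS. Of the named genes, 230 of 234 over Veh_N kept their direction and side of the threshold with the block (not Niban2, Pdgfa, Clec4a1 and Ptpro), and 18 of 26 over Veh_LPS (not Clec4a1, Nabp1, Frmd4b, D17H6S56E-5, Maf, Wdr62, Ptpro and Sqle).

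With library totals the list medians turned to -0.27 (inflammasome), -0.26 (tricarboxylic acid cycle), -0.0053 (respiratory chain), -0.42 (hydroxyglutarate), -0.17 (monocarboxylate transporters), -0.46 (cholesterol), -0.065 (NRF2), -0.25 (unfolded protein response) and -0.20 (iron), and single genes to -0.12 (Rps20), -0.24 (Rpl14), -0.41 (Niban2), -0.011 (Srxn1), -0.37 (Fam214b), -0.10 (Unc13d), -0.0036 (Trib3), -0.19 (Pdgfa) and -0.51 (Idh2). Upper-quartile scaling turned the hydroxyglutarate (-0.12) and cholesterol (-0.15) medians, Niban2 (-0.10), Fam214b (-0.055) and Idh2 (-0.20). With at least 1 CPM required in every resting library, 10 of 40 list medians moved beyond the spread between replicates, among them those of cytokines (4.09), chemokines (4.74), GTPases (5.20) and receptors for lipid mediators and purines (-1.68). Over Veh_N, 215 of 234 named genes kept their direction and side of the threshold with library totals, 225 with upper-quartile scaling, 231 with DESeq2 and 228 or more when 1 library was left out. Over Veh_LPS, 22 of 26 kept theirs with library totals, 12 without D2HG_LPS replicate 1, 18 without replicate 2, 17 without replicate 3, and 18 to 26 without 1 of the other libraries. Other calls against Veh_LPS in the text were not followed through the alternatives. Among these are Ccl12, Fpr1, Nfkbiz, Serpina3g, Fcgr4, Cd300lb, Sqstm1, Abca1, Hspa1a, Hspa1b, Nupr1, Cp, Cnr2, Itgb8, Fst and Plin2, so their stability is not known. Depth limits genes with few counts in a state, as their intervals and floors show.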

Other observations

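Numbered zinc finger genes (symbols of the form Zfp and a number), many of which encode repressors of transposons, fell widely. The family was picked after the run of neighbours on chromosome 2 was seen, so its counts are a description. Of 387 such genes, 303 were tested. In D2HG_LPS, 192 were lower than in Veh_N and 34 higher by edgeR's quasi-likelihood test, with 122 at least 2-fold lower (40.3%, beside 19.7% of all genes) and 15 at least 2-fold higher. Their median log2 fold change was -0.80, and it was -0.82 for Veh_LPS over Veh_N, which shares the resting libraries. Between D2HG_LPS and Veh_LPS 1 of the 303 was called, with a median of 0.03. With upper-quartile scaling 53.5% were at least 2-fold lower (26.5% of all genes), and with library totals 68.3% (36.5%). These genes are expressed at low levels, with a median mean level of 2.32 on the log2 CPM scale against 4.43 over all genes tested. Their copies are similar in sequence, and the part of either fact in the fall was not tested. In 7 runs of neighbours that were all at least 2-fold lower, 3 or more genes were of this family, on chromosome 7 for example Zfp111, Zfp109, Zfp108, Zfp61 and Zfp94.

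Long noncoding RNAs leaned the same way. Of 332 tested, 109 were at least 2-fold lower and 61 at least 2-fold higher in D2HG_LPS than in Veh_N, with a median of -0.40, beside 2161 and 1910 of 11181 protein-coding genes and a median of -0.03.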
